A study of Xenopus laevis with 6 samples.

Results

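The transcripts described here are those for which the effect of the ERK3 morpholinos on Xenopus laevis animal caps differed between caps cultured alone and caps cultured with activin and retinoic acid (activin/RA). Members were chosen on log2 signals of a microarray. For each of 2 ERK3 reagents, MO1/2 and MO3, the ERK3 minus control morpholino difference in untreated caps was subtracted from the same difference in activin/RA caps. A probe set was kept where the resulting difference between cultures had the same sign with both reagents. This held for 24063 of 32539 probe sets, of which 11454 had a higher and 12609 a lower ERK3 effect in activin/RA caps, and the other 8476 had opposite signs. The members carried 8916 distinct gene symbols. Both reagents were read against the same control array in each culture, so agreement in sign between them is no result in itself. A positive difference between cultures means that the ERK3 morpholinos left the transcript relatively higher in activin/RA caps, or, read the other way, that the response to activin/RA was more positive in ERK3 morpholino caps than in control caps.

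The series held 6 groups of 1 array each, all from 1 experiment. Embryos were injected at the 4-cell stage with a control morpholino at 80 ng, with ERK3 MO1 and MO2 together at 40 ng each (MO1/2), or with ERK3 MO3 at 80 ng. Animal caps were cut at stage 9, cultured untreated or with activin/RA, and harvested at stage 15, and all 6 groups therefore carried a morpholino. The labels do not say how many explants a group held, and no array of uninjected caps was analysed here. A knockdown by antisense oligonucleotide can be partial, and the level of the ERK3 transcript mapk6 was not analysed here because 0 probe sets carried that symbol.

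Animal caps are the prospective ectoderm of the blastula. Cultured alone they form epidermis under the influence of BMP signalling, whereas activin, which acts through the Nodal receptors and the Smad2 and Smad3 proteins with their partner Foxh1, turns them into mesoderm and endoderm, and retinoic acid gives the induced tissue a posterior and intermediate character. ERK3 is an atypical MAP kinase, and the title of the series places it in the building of epithelial architecture. The comparison of the ERK3 effect between the cultures asks whether the transcripts that depended on ERK3 did so in ectodermal caps, in induced caps or in both.

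The labelled tissue was checked against its markers. Of 20 measured copies of epidermal keratins and structural genes, 16 exceeded the median over all arrays (log2 signal 5.1) in the untreated control caps and 16 in the activin/RA control caps. Their median response to activin/RA in control caps was 0.08, so as a list these epidermal markers were not lost there. For early and paraxial mesoderm genes, 10 of 47 copies exceeded it in untreated and 37 in activin/RA control caps, and of 38 endoderm copies 9 and 29 did. Neural genes were above the median in 21 of 41 copies in both control groups, and muscle genes in 3 of 36. Over all 11303 genes, with 1 probe set each, 7416 exceeded it in untreated and 7389 in activin/RA control caps. The counts of the lists are to be read against these. Because whole explants were measured, fewer cells of a type and less RNA per cell cannot be told apart in any result below. The median log2 signal ranged from 5.08 to 5.14 over the arrays.

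No probe set passed the test of the difference between cultures. In the limma fit of the 4 combinations of culture and knockdown, in which the 2 reagents stood in for replicates, 0 of 32539 probe sets (0.0%) had an adjusted p under 0.05, and the smallest adjusted p was 0.0533. At an unadjusted p under 0.05 there were 3061 (9.41%). The fitted difference had a median of -0.02 over all probe sets, 5% and 95% points of -0.73 and 0.71, and a median SE of 0.29. With the reagent as a block, a fit that compares each reagent with itself across the cultures and leaves 1 residual degree of freedom in place of 2, 1222 probe sets passed (3.76%), 652 with a higher and 570 with a lower ERK3 effect in activin/RA caps. The labels do not say that caps with the same reagent came from the same embryos. With a constant of 32 added to the signal before log2, which damps the changes of dim probe sets, 43 passed, 17 higher and 26 lower. All values of the difference between cultures below are therefore descriptions that did not pass the main test, and the verbs of change are kept for the simple effects that passed in the same fit. The lone control array of each culture entered every difference, and it could not be left out.

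A difference of at least 2-fold with both reagents was found for 812 probe sets (2.50%), of which 381 were higher (1.17%) and 431 lower (1.32%) in activin/RA caps. With the constant of 32 there were 162, 98 higher and 64 lower. At the edge of the rule, 332 probe sets lay between 0.9 and 1 on the log2 scale and 233 between 1 and 1.1. The 812 held 415 probe sets with 1 gene symbol and 378 distinct symbols. Of the 381 probe sets with a higher difference, 248 were lower by at least 2-fold with both reagents in untreated caps alone, 8 were lower in both cultures, 10 were higher in activin/RA caps alone, and 111 did not reach that size with both reagents in either culture. The remaining 4 were lower in untreated and higher in activin/RA caps, socs3.S, acod1lb.L and 2 probe sets without a symbol. Of the 431 with a lower difference, 218 were higher in untreated caps alone, 77 were lower in activin/RA caps alone, 1 was higher and 1 lower in both cultures, and 134 did not reach 2-fold with both reagents in either. Over all probe sets 2.15% were lower and 2.0% higher in untreated caps alone, and 0.526% were lower and 0.0983% higher in activin/RA caps alone, so effects in untreated caps alone were the more frequent ones throughout the array.

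**Figure D1:**
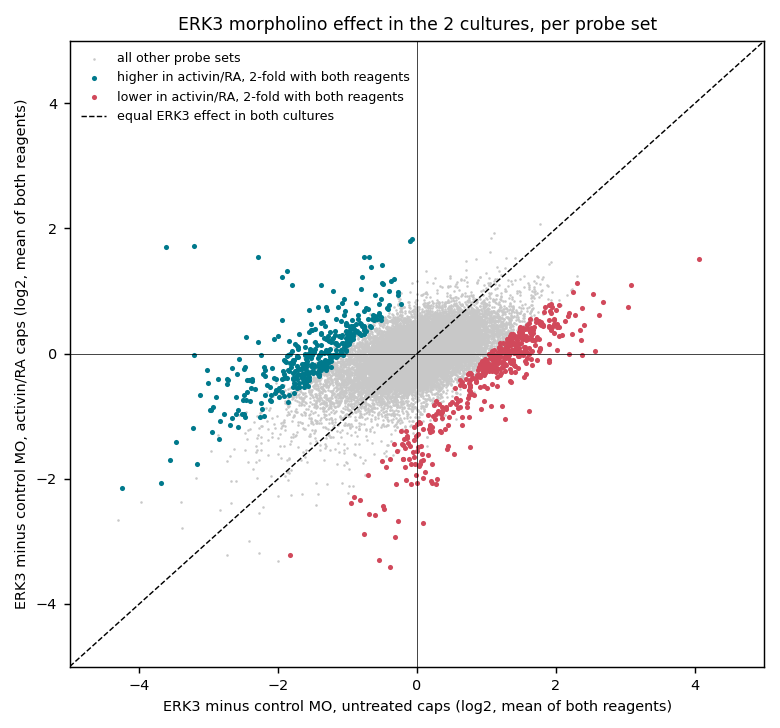
ERK3 minus control morpholino difference (log2, mean of both reagents) in untreated caps on the x axis and in activin/RA caps on the y axis, 1 point per probe set. The 381 teal points lie above and the 431 red points below the dashed line of equal effect, and most are spread along the x axis near 0 on the y axis, while a smaller red group extends downwards near 0 on the x axis.

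By the limma test of the simple effects, in the 381 probe sets, 264 fell and 0 rose with the ERK3 morpholinos in untreated caps, and 1 rose and 0 fell in activin/RA caps. In the 431 probe sets, 242 rose and 2 fell in untreated caps, and 0 rose and 23 fell in activin/RA caps. Over all probe sets 6.7% changed in untreated caps, of which 3.14% rose and 3.56% fell, and 0.0123% rose and 0.126% fell in activin/RA caps. The difference between cultures contains these effects, so nothing is read from their excess among the 812. The p-values were adjusted separately in each culture, so a value that passes in untreated caps can fail in activin/RA caps. For otogl2.L the ERK3 effect was -2.28 in untreated (limma adjusted p = 0.0414) and -3.19 in activin/RA caps (limma adjusted p = 0.0881). Its SE was 0.49 in both. Counts that passed are therefore not comparable between the cultures, here or below. The median ERK3 difference of the 381 was -1.64 with MO1/2 and -1.23 with MO3 in untreated caps, and -0.17 and 0.12 in activin/RA caps. For the 431 it was 1.27 and 1.07 in untreated caps and -0.09 and -0.23 in activin/RA caps. In the difference between cultures, not in the ERK3 effect within a culture, the 2 reagents lay a median of 0.23 apart in the 812. Over all probe sets this was 0.22.

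Signal levels differed with the place of the effect. Over all probe sets 46% were below the median of all values on all 3 untreated arrays and 47.3% on all 3 activin/RA arrays, and among the 812 the shares were 29.7% and 37.4%. At least 1 array exceeded that median for 331 of the 381, for 303 of the 431 and for 18393 of all 32539 probe sets. Of the 77 probe sets lower in activin/RA caps alone, 73 (94.8%) were below it on all untreated and 38 (49.4%) on all activin/RA arrays, and their median response to activin/RA was 2.24 in control caps, 0.75 with MO1/2 and 0.39 with MO3. In the 248 probe sets lower in untreated caps alone, 33 (13.3%) were below it on all untreated and 71 (28.6%) on all activin/RA arrays. In the 218 that were higher in untreated caps alone, 43 (19.7%) and 97 (44.5%) were. The part of the signal level in the place of the effect was not tested.

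Read as a response to activin/RA, the 812 probe sets fell into a few classes. Among the 381, 114 were at least 2-fold lower with activin/RA in control caps but not with both ERK3 reagents, and 103 were at least 2-fold higher with both ERK3 reagents but not in control caps. A further 131 were under 2-fold in control caps and not past 2-fold with both ERK3 reagents, although some passed it with 1 reagent, such as crx.L at 2.32 with MO1/2. Another 22 were higher and 7 lower in both, and 4 were lower in control and higher in ERK3 caps. Among the 431, 86 were higher in control caps but not with both ERK3 reagents, 133 were lower with both ERK3 reagents but not in control caps, 159 were under 2-fold in control caps and not past it with both ERK3 reagents, 36 were higher in both and 17 lower in both. The median response of the 381 was -0.61 in control caps, 0.85 with MO1/2 and 0.76 with MO3, and that of the 431 was 0.44, -0.89 and -0.87. In control caps 15 of the 381 rose and 74 fell with activin/RA, and 97 of the 431 rose and 11 fell, where 3.6% of all probe sets changed (2.04% rose and 1.56% fell). In ERK3 caps 192 of the 381 rose and 11 fell, and 45 of the 431 rose and 256 fell, where 21.1% changed (9.92% rose and 11.1% fell). The control response rests on 1 array against 1 and the ERK3 response on 2 against 2. The SE of the control response is therefore larger (0.54 against 0.38 for socs3.S), and the shares that changed are not comparable between the caps. The 812 were chosen by the difference of these same responses, so nothing is read from their counts.

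**Figure D2:**
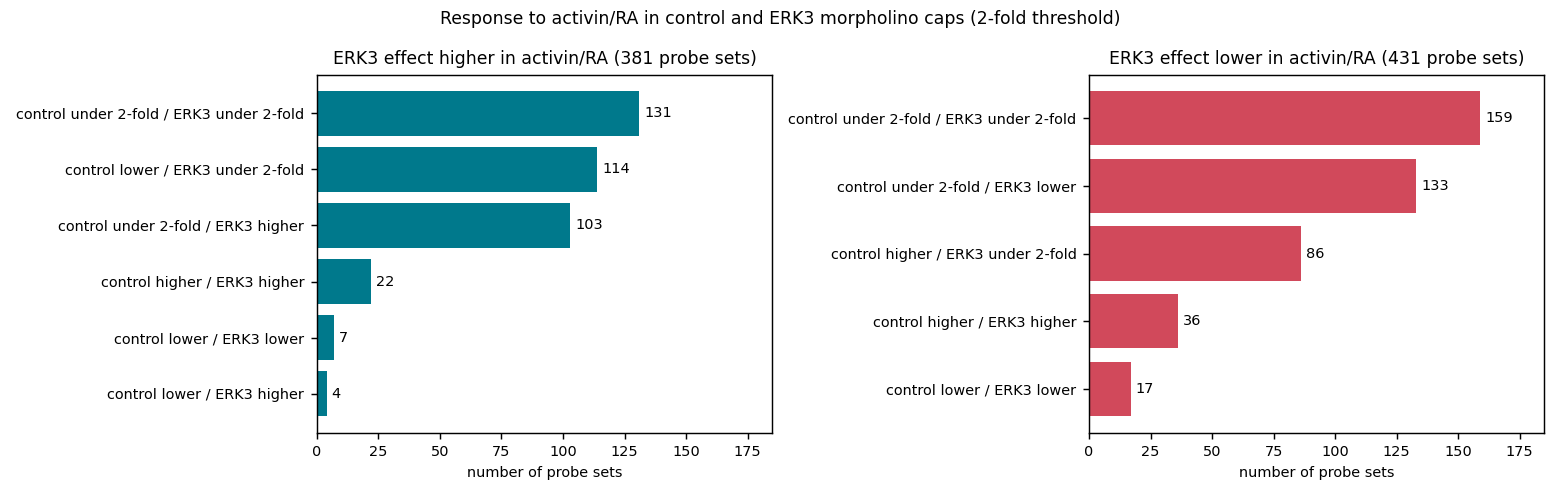
Number of probe sets with a 2-fold difference between cultures, by their response to activin/RA in control caps and in ERK3 morpholino caps (2-fold threshold, with both reagents for ERK3 caps). The left panel holds the 381 with a higher and the right panel the 431 with a lower ERK3 effect in activin/RA caps, and the largest bar of each, 131 and 159, is the class under 2-fold in control caps and not 2-fold with both ERK3 reagents.

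The leading genes with a higher difference were mainly transcripts that fell in untreated ERK3 caps. They are 15 genes taken by a fixed ranking, by the smaller of the 2 reagent values. None passed the main test of the difference (limma adjusted p 0.143 to 0.494), while all 15 passed with the reagent as a block. The spread in that block fit comes from the disagreement between the same 2 reagent values. Ranking on both being large therefore favours a pass, which adds no support. Of the 15 genes, 14 fell with the ERK3 morpholinos in untreated caps and 0 changed in activin/RA caps. Over all probe sets 3.56% fell in untreated caps. The ranking subtracts the effect in untreated caps, so it favours a fall there, and nothing is read from these counts. First among the 15 was socs3, whose product is a feedback inhibitor of cytokine receptor signalling through the JAK and STAT proteins. The log2 signal of socs3.S was 7.58 with the control morpholino, 3.76 with MO1/2 and 4.19 with MO3 in untreated caps, and 2.99, 4.07 and 5.31 in the same order in activin/RA caps. Both ERK3 arrays were below the control array in untreated caps and above it in activin/RA caps, and the control array itself lost signal with activin/RA. The difference between cultures was 5.30 ± 0.66 (SE, limma adjusted p = 0.196). The fall with ERK3 morpholinos in untreated caps was -3.61 (limma adjusted p = 0.0155), and the response of control caps to activin/RA was -4.59 (limma adjusted p = 0.00601). The other subgenome copy, socs3.L, read 7.23, 3.99 and 4.07 in untreated and 2.60, 3.47 and 5.17 in activin/RA caps, with a difference of 4.93 ± 0.82. Without the activin/RA MO1/2 array socs3.S and socs3.L alone passed the test of the difference, at 5.92 (limma adjusted p = 0.0374) and 5.78 (limma adjusted p = 0.0302).

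Crossing of the ERK3 and control arrays was also seen for acod1lb.L, a gene related to aconitate decarboxylase. Its signal was 7.27, 5.02 and 5.63 in untreated caps and 7.46, 8.56 and 8.80 in activin/RA caps. The control arrays hardly differed, while the ERK3 arrays were the 2 lowest in untreated and the 2 highest in activin/RA caps. The difference was 3.17 ± 0.39 (limma adjusted p = 0.196), and the rise with activin/RA in ERK3 caps was 3.36 (limma adjusted p = 0.000185). The 3 probe sets of acod1lb.L disagreed, with differences between 0.19 and 3.17. For satpb.L the values were 9.68, 8.40 and 8.2 in untreated and 9.02, 10.25 and 9.99 in activin/RA caps (difference 2.48 ± 0.24, limma adjusted p = 0.143). The AP-1 subunit gene junb.L read 8.63, 7.23 and 7.19 and then 7.66, 8.18 and 8.63 (difference 2.17 ± 0.31, limma adjusted p = 0.229).

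In other leading genes the difference from the control was large in untreated caps and small in activin/RA caps. The serine protease gene xepsin.L stood at 9.49, 6.31 and 6.64 in untreated caps and at 8.38, 7.76 and 8.07 in activin/RA caps. It fell by 3.01 with ERK3 morpholinos in untreated caps (limma adjusted p = 0.0138), and the value in activin/RA caps was -0.46. The transcription factor gene gata3.S, active in the epidermal ectoderm, stood at 7.87, 4.60 and 4.90 and then at 8.17, 7.50 and 7.53. Its fall in untreated caps was -3.13 (limma adjusted p = 0.0138), its value in activin/RA caps -0.65, and its 2 probe sets gave differences of 1.34 and 2.47. Sizzled, encoded by szl, is a secreted inhibitor of the proteases that cut Chordin and is itself induced by BMP. The signal of szl.S was 5.81, 2.90 and 4.13 in untreated and 4.98, 4.84 and 5.48 in activin/RA caps, where the ERK3 arrays lay on both sides of the control. The differences were 2.48 ± 0.69 for szl.S and 2.26 ± 0.58 for szl.L.

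Other leading genes on this side were stard13.S (2.77), the homeobox gene ventx3.2.S (2.46) and the neuronal tubulin gene tubb3.L (2.48). The hexokinase gene hk1.L (2.31), the G protein regulator gene rgs2.L (2.27) and the T-box repressor gene tbx3.S (2.0) also belonged there. Of these, tubb3.L was the only leading gene on this side whose value in untreated caps, -1.95, did not pass. The second probe set of hk1.L gave a difference of 0.71. rgs2.L read 7.65, 4.54 and 5.80 in untreated and 8.68, 8.21 and 8.73 in activin/RA caps. Its rise with activin/RA passed in ERK3 caps (3.3, limma adjusted p = 0.00184), and the value in control caps was 1.03. A similar difference had another course in tbx3.S, which fell with activin/RA in control caps (-1.86, limma adjusted p = 0.0281) and stood at 0.14 in ERK3 caps.

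The leading genes with a lower difference fell into 2 overlapping kinds. They were transcripts raised by activin/RA less strongly in ERK3 caps and transcripts with higher signals in untreated ERK3 caps, of which 4 passed there. None of these 15 passed the main test (limma adjusted p 0.143 to 0.5). All 15 passed with the block, which their ranking likewise favoured. The ranking also contains the ERK3 effects of both cultures, so nothing is read from how many passed in either. The first kind held regulators of the posterior axis. hoxb4.S, a Hox gene of the hindbrain and spinal cord that responds to retinoic acid, read 3.08, 3.48 and 3.11 in untreated caps and 7.42, 5.85 and 4.90 in activin/RA caps. The 3 untreated arrays were close together, and with activin/RA both ERK3 arrays were below the control. The rise with activin/RA was 4.33 in control caps (limma adjusted p = 0.00344) and 2.09 in ERK3 caps (limma adjusted p = 0.00506), a difference of -2.24 ± 0.54. The Hox cofactor gene meis3.L read 3.62, 2.80 and 3.05 and then 7.13, 4.45 and 4.69. It was 1 of the 3 leading genes that fell with the ERK3 morpholinos in activin/RA caps (-2.56, limma adjusted p = 0.0342), with a difference of -1.87 ± 0.33. A second probe set of meis3.L stood at -1.3. The homeobox gene gbx2.1.S, expressed in posterior neural plate and plate border, read 2.89, 2.93 and 3.27 and then 7.72, 6.01 and 5.91, a difference of -1.97 ± 0.33.

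Outside the axial regulators, itln1.L, encoding the secreted lectin intelectin, read 3.34, 2.59 and 2.98 in untreated caps and 6.42, 3.62 and 2.62 in activin/RA caps. It rose with activin/RA in control caps (3.08, limma adjusted p = 0.014), the value in ERK3 caps was 0.33, and the fall with ERK3 morpholinos in activin/RA caps was -3.3 (limma adjusted p = 0.0421). XB5949052.L, to which no function is given here, had the lowest difference of the leading genes (-3.03 ± 0.32), with 2.55, 1.99 and 2.34 in untreated and 6.40, 2.86 and 3.11 in activin/RA caps. Its second probe set stood at -1.27. XB5899881.L (-2.79) and the adaptor gene eps8l3.S (-2.40, with 1 of its 3 probe sets at -0.02) were also of this kind. The Hairy and Enhancer-of-split related genes esr-5.L (-2.52) and hes7.2.L (-1.80) belonged to both kinds. esr-5.L read 3.21, 5.30 and 4.34 in untreated and 7.77, 7.53 and 6.18 in activin/RA caps. hes7.2.L read 3.37, 5.26 and 4.17 and then 6.72, 6.75 and 5.79. Their ERK3 values in untreated caps, 1.61 and 1.35, did not pass. The 3 probe sets of hes7.2.L differed in sign and ranged from -1.80 to 0.21.

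Apart from esr-5.L and hes7.2.L, the second kind was made up of transcripts known from the oocyte and early embryo, and of hprt1.L and lig4.L. A dim probe set of foxh1.L, the gene of the DNA-binding partner of activated Smad2 and Smad3, read 3.40, 5.90 and 6.02 in untreated caps and 4.89, 4.82 and 5.05 in activin/RA caps. It rose with the ERK3 morpholinos in untreated caps (2.56, limma adjusted p = 0.0138), and in activin/RA caps the 3 arrays lay within a narrow range. The cytoplasmic polyadenylation factor gene cpeb1.L read 5.24, 7.45 and 8.26 and then 5.25, 5.73 and 6.01. Its control arrays were equal within 0.01, and both ERK3 arrays were higher in both cultures, by 2.61 in untreated caps (limma adjusted p = 0.0155) and by 0.62, which did not pass, in activin/RA caps. The gene of the oocyte TBP paralogue, tbpl2.L, read 2.79, 5.5 and 4.83 and then 3.22, 3.56 and 2.82 (difference -2.41 ± 0.53). fbxo43.L, whose product holds the egg in meiotic arrest, had a difference of -2.14 and the DNA ligase gene lig4.L one of -2.31, and their values in untreated caps, 2.36 and 1.27, did not pass. The difference was -2.0 for the purine salvage gene hprt1.L, whose 3 probe sets lay between -2.0 and -0.56.

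**Figure D3:**
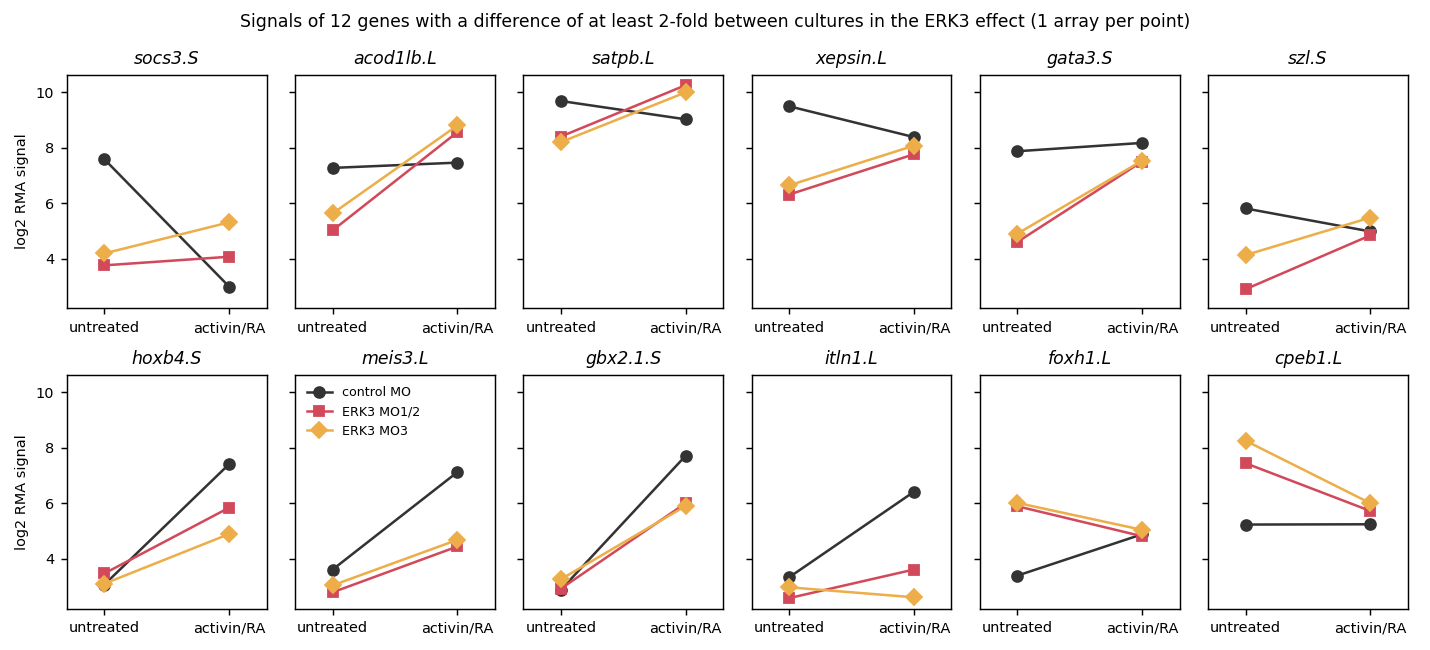
Log2 RMA signal of 12 leading genes in untreated and activin/RA caps, 1 point per array, with lines joining the arrays of the same morpholino (control dark circles, MO1/2 red squares, MO3 yellow diamonds). In the upper row the ERK3 lines start below the control in untreated caps and close or cross the gap with activin/RA, as for socs3.S with 7.58 against 3.76 and 4.19. In the lower row hoxb4.S, meis3.L, gbx2.1.S and itln1.L part from the control with activin/RA, and foxh1.L and cpeb1.L start above it in untreated caps.

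The Nodal and activin pathway carries the activin signal, and its 31 measured copies had differences on both sides (median 0.17, against -0.02 over all genes). With both reagents 15 were higher and 10 lower, beside 34.8% and 39.4% of 11303 genes, and 3 and 3 reached 2-fold, beside 1.24% and 1.42%. In untreated caps 3 rose and 1 fell with the ERK3 morpholinos, where 4.08% of all genes rose and 3.8% fell. In activin/RA caps 0 changed, where 0.0265% of all genes rose and 0.124% fell. Among the ligands, the Nodal-related co-ligand gene gdf3.S read 4.81, 4.02 and 4.06 in untreated and 8.16, 8.68 and 8.45 in activin/RA caps, with a difference of 1.18 ± 0.29. nodal.L (1.16 ± 0.26), nodal2.L (1.11 ± 0.34) and nodal1.L (0.93 ± 0.46) lay on the same side, inhbb.L was at 0.69 and gdf1.S at 0.26. nodal6.L and nodal6.S stayed between 1.46 and 1.90 on all arrays. All these ligand values were above 0, and nodal.L was below the median of all values on every array.

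The co-receptors of the same pathway went the other way or stayed level. tdgf1.2.S, a Cripto-related co-receptor gene, read 1.87, 2.26 and 2.36 in untreated and 4.96, 3.31 and 3.56 in activin/RA caps, below the median of all values on every array. It rose with activin/RA in control caps (3.08, limma adjusted p = 0.000841) and less in ERK3 caps (1.13, limma adjusted p = 0.00405), a difference of -1.96 ± 0.28. The maternal co-receptor gene tdgf1.1.L read 5.87, 7.86 and 7.57 and then 5.83, 6.76 and 6.38. It rose with the ERK3 morpholinos in untreated caps (1.85, limma adjusted p = 0.0155), and its difference was -1.11 ± 0.34. tdgf1.3.L was at 0.00. The receptor genes acvr2a.S (0.63), acvr2a.L (0.17), acvr1b.S (-0.19), acvr2b.L (-0.16) and acvr2b.S (-0.14) had differences within 0.63 of 0.

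Among the transducers, smad4.L and smad2.L differed in direction. smad4.L, the common partner of all receptor Smads, read 6.85, 5.31 and 5.73 in untreated and 7.79, 7.62 and 7.67 in activin/RA caps. It fell with ERK3 morpholinos in untreated caps (-1.33, limma adjusted p = 0.0241), with a difference of 1.19 ± 0.32. smad2.L read 7.16, 8.22 and 8.05 and then 7.50, 7.72 and 7.26. It rose in untreated caps (0.98, limma adjusted p = 0.0487), with a difference of -0.99 ± 0.32, and smad2.S stood at -0.30 and smad3.L at -0.36. A second probe set of smad2.L was at -0.43. The brighter of the probe sets of foxh1.L read 8.47, 9.73 and 9.67 and then 8.95, 9.34 and 8.98, a difference of -1.01 ± 0.25.

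The feedback antagonists also split. lefty.L, which blocks Nodal ligands and co-receptors, read 5.69, 4.61 and 4.73 in untreated and 5.43, 5.62 and 6.15 in activin/RA caps, a difference of 1.47 ± 0.38, and lefty.S stood at 0.35. The secreted antagonist gene cer1.S read 2.36, 2.88 and 2.75 and then 9.00, 8.28 and 7.68, a difference of -1.48 ± 0.40. Its rise with activin/RA passed in control caps (6.64, limma adjusted p = 0.000259) and in ERK3 caps (5.16, limma adjusted p = 4.83e-05). A second probe set of cer1.S gave a difference of -0.6. The activin-binding protein gene fst.L (0.43) and the repressor genes tgif1.S (0.46), tgif2.L (0.13) and tgif2.S (-0.22) were nearer 0, as were gtf2ird1.S (0.20) and the endodermal homeobox genes mixer.S (0.36) and mixer.L (0.20). A second probe set of tgif2.L stood at -0.52.

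BMP pathway targets, which mark the ventral and epidermal ectoderm, had the highest median difference of the 24 gene lists described. Their median was 0.95, with 22 of 27 copies higher and 2 lower with both reagents, 7 higher and 0 lower by 2-fold, and 11 higher and 0 lower with the reagent as a block. In untreated caps 15 fell and 0 rose with the ERK3 morpholinos (median effect -1.18), and in activin/RA caps 0 passed (median effect -0.33). In this and the following lists such counts are not comparable between the cultures, because the p-values were adjusted separately. Over all 11303 genes, against which the counts of this and the following lists are to be read, 1.24% were higher and 1.42% lower by 2-fold, 251 were higher and 238 lower with the block, and in untreated caps 3.8% fell and 4.08% rose. The median response of the BMP targets to activin/RA was -0.21 in control caps and 0.80 with each ERK3 reagent. Outside szl and ventx3.2.S, the homeobox gene ventx1.1.S read 6.61, 2.98 and 4.38 in untreated caps and 7.24, 6.38 and 6.41 in activin/RA caps. Its fall with ERK3 morpholinos in untreated caps was -2.93 (limma adjusted p = 0.0235), with a difference of 2.09 ± 0.69. dlx3.S, a homeobox gene of the epidermal ectoderm, read 8.34, 3.84 and 5.72 and then 8.06, 6.18 and 6.52. Its fall in untreated caps was -3.56 (limma adjusted p = 0.0268), the value in activin/RA caps was -1.70, and the reagents gave differences of 2.62 and 1.08. ventx2.1.L stood at 1.38. Without the untreated MO1/2 array the difference of ventx1.1.S was 1.39, that of dlx3.S 0.91 and that of ventx3.2.S 1.55.

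Epidermal transcription factors, which share dlx3, dlx5, gata2 and the msx genes with that list, had a median difference of 0.78. It was 0.78 with MO1/2, 0.36 with MO3 and 0.3 with the constant of 32. With both reagents 16 of 27 copies were higher and 9 lower. Of these, 6 were higher and 1 lower by 2-fold, and in untreated caps 12 fell and 2 rose with the ERK3 morpholinos. The ionocyte regulator foxi1.L read 10.55, 7.98 and 9.19 in untreated and 10.77, 9.94 and 10.40 in activin/RA caps (difference 1.37 ± 0.61, and 0.77 without the untreated MO1/2 array). foxi4.2.L (1.48 ± 0.45), foxi4.2.S (1.38 ± 0.33) and the Krüppel-like factor gene klf17.L (1.42 ± 0.56) stood close to it, and 1 of the 4 probe sets of foxi4.2.S was at -0.02. The 2-fold gene on the lower side was grhl1.L (-1.28), and the copies of foxi2 that rose in untreated caps were foxi2.S (1.22) and foxi2.L (1.47). These last 3 are named after their values were seen.

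Epidermal keratins and structural genes had a median of 0.47 (0.06 with the constant of 32), with 13 of 20 copies higher and 1 lower, and 3 higher and 0 lower by 2-fold. In untreated caps 11 fell and 0 rose. The keratin gene krt12.5.S read 7.64, 2.53 and 4.26 in untreated and 9.85, 7.91 and 7.51 in activin/RA caps. It was below the control with both reagents in both cultures, by -4.25 (limma adjusted p = 0.0178) and by -2.14, which did not pass, and its reagents gave differences of 3.16 and 1.04. On the linear signal the differences of krt12.5.S had the opposite sign, -489.4 with MO1/2 and -560.8 with MO3. krt12.4.L read 5.34, 1.72 and 1.59 and then 8.73, 7.28 and 6.07. The differences were 1.62 ± 0.62 for krt12.4.L and 1.61 ± 0.66 for krt12.4.S, and with the constant of 32 they became -0.71 and -0.17.

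Genes of single epidermal cell types were spread more widely. In the ionocyte list (median 0.23, 10 of 15 copies higher and 4 lower, 5 fell in untreated caps), the proton pump subunit gene atp6v0a4.L read 4.53, 2.59 and 2.63 in untreated and 3.25, 2.83 and 3.02 in activin/RA caps (difference 1.60 ± 0.27). Every array of atp6v0a4.L was below the median of all values. Multiciliated cell genes had a median of 0.06, with 10 of 23 higher and 8 lower, and 2 fell in untreated caps. The ciliogenesis regulator gene foxj1.S read 7.95, 3.95 and 6.04 and then 7.55, 5.31 and 7.28. Its reagents lay far apart in both cultures and gave differences of 1.75 and 1.63 (mean 1.69 ± 1.32, limma adjusted p = 0.74), and the value in untreated caps, -2.95, did not pass. The mean difference of foxj1.S was 0.65 without the untreated MO1/2 array, 2.73 without the untreated MO3 array, 2.67 without the activin/RA MO1/2 array and 0.71 without the activin/RA MO3 array. The gene mcidas.S, whose product starts the multiciliated programme, stood on the other side at -1.36 ± 0.28. Its signal was below the median of all values on every array. Mucus, secretory and cement gland genes had a median of 0.14 (0.38 with MO1/2 and 0.02 with MO3), with 6 of 14 higher and 4 lower. They held agr2.L (1.51 ± 0.27), the head regulator otx2.S (1.75 ± 0.65), slc18a2.L (-1.31 ± 0.45) and itln1.L. Of these, agr2.L was below the median of all values on every array.

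**Figure D4:**
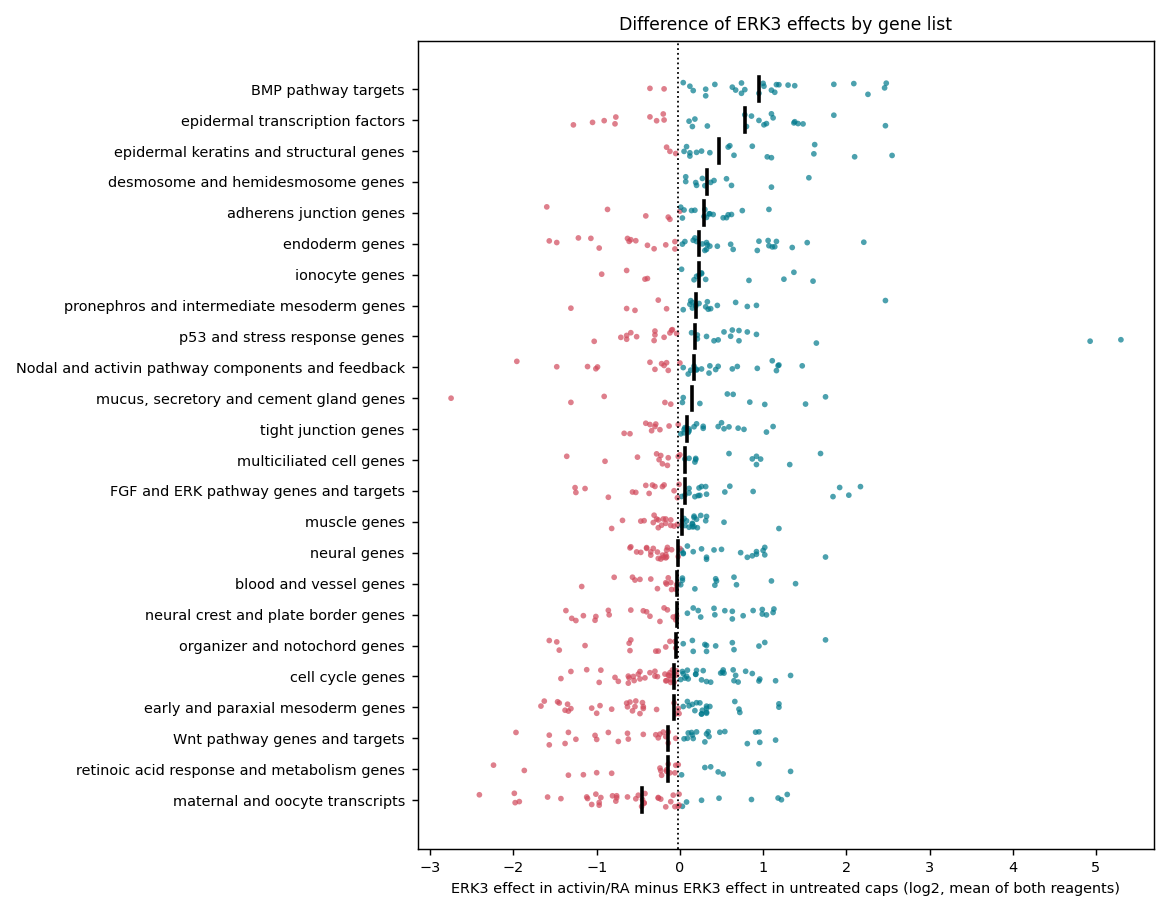
Difference of the ERK3 effects between cultures (log2, activin/RA minus untreated, mean of both reagents) for each measured gene copy of 24 gene lists, with the list median as a black bar and the median of all genes, -0.02, as a dotted line. List medians run from 0.95 for BMP pathway targets at the top to -0.45 for maternal and oocyte transcripts at the bottom, and the single points of most lists lie on both sides of 0.

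Early and paraxial mesoderm genes had a positive median response to activin/RA with every morpholino, 2.66 in control caps, 2.60 with MO1/2 and 1.82 with MO3. Their median difference was -0.07 (0.09 with MO1/2 and -0.48 with MO3, and -0.41 when all probe sets of a gene were averaged; 13 of 47 copies higher and 22 lower with both reagents), 1 was higher and 6 lower by 2-fold, and 0 changed with the ERK3 morpholinos in activin/RA caps. The members with the lowest values act in the presomitic and posterior mesoderm. mespa.L, a bHLH gene of somite segmentation, read 2.26, 2.03 and 2.15 in untreated and 7.13, 5.66 and 4.98 in activin/RA caps, a difference of -1.63 ± 0.42. ripply2.2.S, which also acts in somite segmentation, read 2.45, 2.44 and 2.60 and then 6.03, 4.50 and 4.36, a difference of -1.67 ± 0.29. The brachyury gene tbxt.L read 3.05, 3.23 and 3.27 and then 6.09, 5.05 and 4.62, a difference of -1.45 ± 0.35. In all 3 the untreated arrays were close together, and both ERK3 arrays were below the control with activin/RA.

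The presomitic gene msgn1.L (-1.47 ± 0.72) and the ligand gene wnt8a.L (-1.38 ± 0.39) followed the same course. wnt8a.L rose with activin/RA in control caps by 6.33 (limma adjusted p = 0.000277) and in ERK3 caps by 4.95 (limma adjusted p = 4.83e-05). eomes.L, a T-box gene of early mesendoderm, reached a similar difference (-1.35 ± 0.44) in another way, with 4.12, 5.23 and 5.65 in untreated and 8.46, 8.76 and 8.09 in activin/RA caps. Its ERK3 arrays were above the control in untreated caps and lay on both sides of it with activin/RA.

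Endoderm genes had a median difference of 0.23 (0.27 with MO1/2 and -0.02 with MO3), with 17 of 38 copies higher and 11 lower, 3 and 4 of them by 2-fold, and 7 fell and 2 rose in untreated caps. The GATA factor gene gata4.L read 6.49, 3.1 and 4.08 in untreated and 7.41, 6.57 and 6.87 in activin/RA caps. It fell by 2.90 in untreated caps (limma adjusted p = 0.0161), its difference was 2.21 ± 0.54, and its second probe set stood at 0.09. gata5.S (1.53 ± 0.42) lost signal with activin/RA in control caps (-2.65, limma adjusted p = 0.0093). The endodermal HMG-box gene sox17b.1.S went the other way, with 5.29, 6.44 and 6.85 and then 7.77, 7.84 and 7.97. It rose with the ERK3 morpholinos in untreated caps (1.35, limma adjusted p = 0.0235), and its difference was -1.22 ± 0.32. Organizer and notochord genes had a median of -0.05 (0.10 with MO1/2, -0.11 with MO3, 0.07 with the constant of 32 and 0.02 after quantile normalization; 7 of 25 higher and 10 lower), and 0 changed with the ERK3 morpholinos in either culture. The Wnt antagonist gene dkk1.S stood lowest there at -1.57 ± 0.46, with a second probe set at -0.53.

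Retinoic acid response and metabolism genes had a median difference of -0.14 (0.04 with MO1/2 and -0.51 with MO3), with 6 of 23 copies higher and 9 lower, and 0 higher and 4 lower by 2-fold. These 4 were hoxb4.S, meis3.L, the caudal homeobox gene cdx4.L (-1.34 ± 0.61) and the retinoic acid hydroxylase gene cyp26c1.S (-1.16 ± 0.35). cdx4.L read 2.55, 2.96 and 2.06 in untreated and 8.60, 7.62 and 6.82 in activin/RA caps. Of the 3 probe sets of cyp26c1.S the nearest to 0 stood at -0.10. The one at -1.16 was below the median of all values on every array. meis2.L lay on the other side, at 1.33 ± 0.44. In untreated caps 4 genes of this list fell and 0 rose, and in activin/RA caps only meis3.L fell.

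Wnt pathway genes and targets, which share cdx4, wnt8a and dkk1 with these lists, had a median of -0.14 (0.0 with MO1/2 and -0.23 with MO3). Of 39 copies 12 were higher and 16 lower, and 0 were higher and 6 lower by 2-fold. The receptor gene fzd10.L read 3.57, 3.88 and 3.92 in untreated and 6.35, 4.99 and 5.22 in activin/RA caps, a difference of -1.57 ± 0.31. Its rise with activin/RA was 2.77 in control caps (limma adjusted p = 0.00213) and 1.2 in ERK3 caps (limma adjusted p = 0.00473). The growth regulator gene myc.S read 6.66, 7.77 and 7.44 and then 8.14, 8.02 and 7.66, a difference of -1.25 ± 0.32, and its 5 probe sets lay between -1.55 and -0.60. In untreated caps 6 genes of the list fell and 1 rose.

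**Figure D5:**
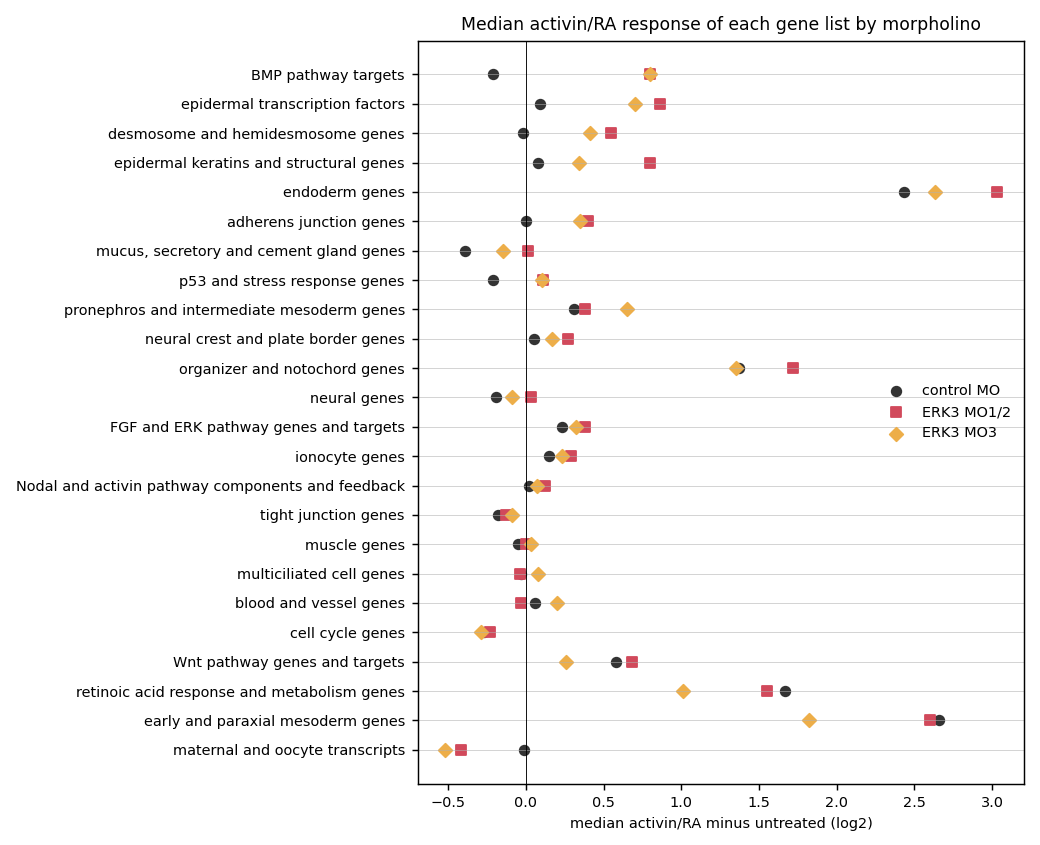
Median response to activin/RA (log2, activin/RA minus untreated) of the members of each gene list in control (dark circles), MO1/2 (red squares) and MO3 (yellow diamonds) caps. BMP targets stand at -0.21 in control caps and 0.80 with both reagents, mesoderm genes at 2.66, 2.60 and 1.82, and maternal transcripts at -0.01, -0.42 and -0.52.

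FGF and ERK pathway genes and targets had a median difference of 0.06 (12 of 33 higher and 11 lower). The 4 copies that were higher by 2-fold were all genes of the AP-1 transcription factor, and spry1.S and myc.S were lower by 2-fold. fos.S read 9.48, 8.96 and 8.40 in untreated and 7.22, 8.56 and 8.33 in activin/RA caps. It fell with activin/RA in control caps (-2.26, limma adjusted p = 0.00803), the value in ERK3 caps was -0.23, and the difference was 2.03 ± 0.35. jun.L read 7.15, 6.98 and 6.29 and then 5.52, 6.87 and 6.99, a difference of 1.92 ± 0.41. It also fell with activin/RA in control caps (-1.63, limma adjusted p = 0.0455). junb.S stood at 1.84 ± 0.37 beside junb.L, although its second probe set was at 0.32.

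The stress-responsive gene atf3.L, from the p53 and stress response list, had the same course as fos.S and jun.L, with 7.37, 7.18 and 6.55 in untreated and 6.19, 7.23 and 7.42 in activin/RA caps (difference 1.64 ± 0.39). In these genes the control array of activin/RA caps was the lowest of the 3 of its culture, and the untreated control array the highest of its own. That list as a whole had a median of 0.18 (0.35 with MO1/2 and -0.05 with MO3), with 13 of 30 higher and 11 lower. Its 3 copies with a 2-fold difference were atf3.L, socs3.S and socs3.L. spry1.S, an inhibitor of FGF receptor signalling, read 4.51, 5.93 and 5.71 and then 5.81, 5.97 and 5.75. It rose with the ERK3 morpholinos in untreated caps (1.3, limma adjusted p = 0.0249), and its difference was -1.26 ± 0.32.

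Maternal and oocyte transcripts had the lowest median difference of the 24 lists, -0.45, with 6 of 43 copies higher and 29 lower, 2 and 7 of them by 2-fold. In untreated caps 19 rose and 1 fell with the ERK3 morpholinos, and in activin/RA caps 0 changed. The list was written with earlier results of these arrays known, and its direction is no independent evidence. Its median response to activin/RA was -0.01 in control caps, -0.42 with MO1/2 and -0.52 with MO3. Beside cpeb1.L and tbpl2.L, the anti-proliferative gene btg3.S read 3.75, 6.88 and 6.78 in untreated and 4.07, 5.88 and 4.46 in activin/RA caps. It rose by 3.08 in untreated caps (limma adjusted p = 0.0223), and its difference was -1.98 ± 0.70. ssx2ip.S, a centrosome and spindle gene, read 4.60, 6.81 and 6.87 and then 4.89, 5.54 and 4.87, a difference of -1.93 ± 0.42. cpeb1.S read 4.59, 6.28 and 6.91 and then 4.48, 4.93 and 4.89, a difference of -1.59 ± 0.40. The embryonic cyclin gene ccna1.S read 8.39, 10.43 and 10.30 and then 9.08, 10.06 and 9.19, a difference of -1.43 ± 0.44. For each of these genes both ERK3 arrays were above the control in untreated caps by more than the reagents differed.

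Cell cycle genes as a whole had a median of -0.07 (0.06 with MO1/2 and -0.06 with MO3), with 25 of 61 higher and 25 lower. In untreated caps 6 rose and 5 fell. The mitotic cyclin gene ccnb1.S read 9.91, 11.57 and 11.53 in untreated and 10.06, 10.68 and 10.12 in activin/RA caps (difference -1.31 ± 0.30). wee1.S, whose product inhibits the mitotic kinase, went the other way with 8.27, 6.96 and 7.26 and then 8.22, 8.40 and 8.37 (difference 1.33 ± 0.27). Its activin/RA arrays were within a narrow range, and the fall with the ERK3 morpholinos was seen in untreated caps (-1.17, limma adjusted p = 0.0223). A second probe set of wee1.S gave a difference of 0.69.

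Junction genes bear on the epithelial architecture named in the title of the series. Desmosome and hemidesmosome genes had a median of 0.33, with 11 of 12 copies higher and 0 lower with both reagents but 0 by 2-fold. The cytolinker gene dst.L read 5.73, 3.59 and 4.61 in untreated and 6.37, 6.44 and 6.16 in activin/RA caps (difference 1.55 ± 0.56). The cornified envelope gene evpl.L fell in untreated caps (-2.45, limma adjusted p = 0.0223), and the value was -1.36 in activin/RA caps. Plakoglobin, encoded by jup, differed little, at 0.62 ± 0.19 for jup.L and 0.56 ± 0.21 for jup.S. Adherens junction genes had a median of 0.29 (12 of 23 higher and 4 lower, 0 by 2-fold). The E-cadherin gene cdh1.S read 5.55, 2.35 and 3.53 and then 6.11, 4.08 and 4.08, below the control with both reagents in both cultures. It fell by 2.61 in untreated caps (limma adjusted p = 0.0228), the value in activin/RA caps was -2.03, and the reagents gave differences of 1.16 and -0.01 (mean 0.58, and -0.08 with the constant of 32).

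The mesenchymal cadherin gene cdh11.S was among the adherens junction genes with a lower difference, with 2.28, 2.77 and 2.89 in untreated and 5.58, 5.12 and 3.94 in activin/RA caps (-1.60 ± 0.60). The apical constriction gene shroom3.L stood at 1.07 ± 0.72, and its signal was below the median of all values on every array. Tight junction genes had a median of 0.09 (16 of 30 higher and 9 lower), and 2 rose and 3 fell in untreated caps. The only 2-fold copy, tfap2a.L (1.04 ± 0.19), encodes a transcription factor of the epidermis and not a junction protein. The highest value of a junction component was 0.77 ± 0.30 for the scaffold gene tjp3.L, and the lowest was -0.67 ± 0.55 for marveld3.L.

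Neural, neural crest, pronephros, muscle and blood genes had medians between -0.04 and 0.19. Neural genes stood at -0.02 (15 of 41 higher and 15 lower), with otx2.S as the only 2-fold copy. Among 34 copies of neural crest and plate border genes (median -0.04, 13 higher and 15 lower), the transcriptional regulator gene kctd15.L fell with the ERK3 morpholinos in both cultures. It read 4.97, 2.68 and 3.58 in untreated caps (-1.84, limma adjusted p = 0.0382) and 6.55, 3.09 and 3.59 in activin/RA caps (-3.21, limma adjusted p = 0.0421), and its difference was -1.37 ± 0.55. In untreated caps 4 copies of this list rose and 9 fell with the ERK3 morpholinos, where 4.08% of all genes rose and 3.8% fell. Among those that rose were the crest genes twist1.L (difference -1.3 ± 0.41) and ets1.S (difference -1.16 ± 0.45). The difference of sox9.S stood at 1.13 ± 0.45. On every array twist1.L was below the median of all values. In the pronephros and intermediate mesoderm list (median 0.19, 10 of 22 higher and 5 lower) the 2-fold copies were gata3.S and foxc2.S (-1.31 ± 0.36). Every array of this foxc2.S probe set was below the median of all values.

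Muscle genes had a median of 0.03 (13 of 36 higher and 13 lower, 0 by 2-fold). The myogenic regulator gene myod1.L read 6.81, 7.24 and 6.63 in untreated and 4.68, 6.01 and 5.96 in activin/RA caps. It fell with activin/RA in control caps (-2.13, limma adjusted p = 0.0146) and in ERK3 caps (-0.95, limma adjusted p = 0.0249), a difference of 1.19 ± 0.39. In the blood and vessel list (median -0.04, 8 of 26 higher and 9 lower) the 2-fold copies were the blood regulator gene runx1.L (1.39 ± 0.53) and the endothelial receptor gene flt1.L (-1.18 ± 0.24). Both were below the median of all values on every array, and the second probe set of runx1.L stood at 0.76.

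The frog is allotetraploid, and many genes have a copy on the long (.L) and on the short (.S) subgenome, which can share probes. Of 2009 pairs measured, 106 had at least 1 copy with a 2-fold difference, and in 86 of these the fitted values of both copies had the same sign. Both copies reached 2-fold in 11 pairs. They had the same direction in 10, among them socs3 (4.93 and 5.30), szl (2.26 and 2.48), junb (2.17 and 1.84), foxi4.2 (1.48 and 1.38), cpeb1 (-1.99 and -1.59) and sox17b.1 (-1.07 and -1.22). The pair with opposite directions was rnf222 (1.12 and -1.77). The share of pairs with the same sign over all 2009 is not given here, so nothing is read from these counts. Taken on the linear signal in place of log2, 801 of the 812 probe sets (98.6%) kept the sign of their difference with both reagents, 7 had the opposite sign with both, and in 4 the reagents differed.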

How the data were processed

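Per the series' design text, the authors scanned 6 arrays of the GeneChip Xenopus laevis Genome 2.0 type, used GCOS 1.4, and normalized the signals by robust multi-array average (RMA) in Expression Console. The labels and that text name different labelling kits. What the authors deposited is RMA intensity, not log-transformed (2.13 to 18347), and log2 was taken here with no constant. The table had 32635 entries, from which 96 Affymetrix controls were dropped, and no filter on level was applied. Through the platform annotation 15495 probe sets had 1 gene symbol, while 279 had more than 1 and 16765 had no symbol. By identifier, 15384 of the named ones were found among RefSeq genes, 2 symbols were updated, and 11303 distinct symbols resulted.

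limma 3.58.1 in R 4.3.3 fitted the 4 combinations of culture and knockdown (lmFit, eBayes with an intensity trend, 2 residual degrees of freedom), with Benjamini-Hochberg adjustment over all 32539 probe sets and a threshold of 0.05. The reagents are not labelled as separate cultures of 1 condition, and both residual degrees of freedom are differences between the MO1/2 and MO3 arrays of a culture. The spread behind a p-value therefore holds differences between the reagents as well as array-to-array spread, part of which can be technical. It holds nothing from the control arrays. On simulated arrays with 200 of 32539 probe sets changed, the fit of the difference between cultures found 89.5% of those changed by 3 (log2), with 13 false calls, and 0% of those changed by 1 or 2. The simulated noise was independent between arrays, with no part shared by a reagent, so 89.5% is not the power for the real arrays. On the real arrays socs3.S, with a difference of 5.30, did not pass (limma adjusted p = 0.196). Same-reagent deviations correlated between the cultures at r = 0.30 across probe sets, which are not independent.

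Lists were represented by the probe set with the highest mean for each gene copy and described by counts and medians only. Named genes are the 15 leading genes in each direction, filled from 2-fold differences with both reagents because 0 passed and restricted to genes whose brightest array exceeds the overall median. Up to 6 members of each list by size, all Nodal pathway members and up to 3 of each response class were also eligible. The members and lists were chosen with earlier results of these data known. No sequences are shown.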

Additional observations from a re-analysis of the deposited data

Results flagged for a closer look

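For 10 of the leading genes both ERK3 arrays moved 1 way against the control in untreated caps and the opposite way in activin/RA caps. The difference between the cultures did not pass the main test for any of them, and a difference of at least 2-fold with both reagents had placed them among the leading genes. Higher in activin/RA and lower in untreated ERK3 caps were socs3.S (difference 5.30), socs3.L (4.93), acod1lb.L (3.17), satpb.L (2.48) and junb.L (2.17). Lower in activin/RA and higher in untreated ERK3 caps were XB5899881.L (-2.79), esr-5.L (-2.52), lig4.L (-2.31), hoxb4.S (-2.24) and gbx2.1.S (-1.97). The untreated differences of XB5899881.L (0.09), hoxb4.S (0.21) and gbx2.1.S (0.21) were small, and those of esr-5.L (1.61) and lig4.L (1.27) were larger but did not pass.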

How the results depend on the processing

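The 24063 members became 23941 after quantile normalization and 24174 with a constant of 32. The test of the difference called 0 probe sets as reported, after quantile normalization, without the intensity trend, above the median level and with 1 probe set per gene. It called 43 (17 higher, 26 lower) with the constant of 32, and 0 to 2 when an ERK3 array was left out (0 to 2 higher, 0 lower); the lone sample of that group is then assumed to vary like the others. With the reagent as a replicate block it called 1222 (652 higher, 570 lower), and 113 of the 173 named probe sets passed with 0 reversed. That fit gives the same estimates as the main fit, so none could reverse. Many of the named probe sets were chosen for a large difference, which favours a pass. The 812 differences of at least 2-fold with both reagents (381 higher, 431 lower) became 3213 at 1.5-fold (1472 and 1741), 30 at 4-fold (20 and 10), 772 after quantile normalization (390 and 382), 162 with the constant of 32 (98 and 64) and 440 above the median level (244 and 196). The median of 15 of 24 lists was above 0, and of 16 after quantile normalization or with the constant. With the constant, krt12.4.L (-0.71), krt12.4.S (-0.17) and cdh1.S (-0.08) changed sign, as tdgf1.3.L (-0.03) did after quantile normalization; the BMP median became 0.59, the epidermal factor median 0.30, the keratin median 0.06 and the maternal median -0.36. The cause of these shifts was not tested. Leaving out 1 ERK3 array moved fst.L between -0.12 and 0.97, tgif2.S between -0.52 and 0.07, acvr2b.S between -0.35 and 0.07, tgif2.L between -0.05 and 0.31, nodal6.L between -0.05 and 0.25, nodal6.S between -0.14 and 0.21, tdgf1.3.L between -0.02 and 0.03 and cdh1.S between -0.01 and 1.16. RMA signals near the lower end compress changes, and the number of arrays limits the precision.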
